A study of Saccharomyces cerevisiae with 8 samples.

Results

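The genes described here encode the subunits of RNA polymerases I and III of budding yeast and the factors that place these enzymes on their promoters. A list of 35 gene names fixed the members, and each gene was read from the probe set that carries its symbol alone, taking the brightest over the 8 arrays where a gene had several. The 35 members are among 5656 genes with such a probe set, and all 35 passed a filter at a mean signal of about 5.80 on the log2 scale, as did 5343 genes in all. They comprise 20 core subunits and 15 initiation factors. Of the core subunits, 7 belong to polymerase I, 10 to polymerase III and 3 to both, and of the factors, 7 serve polymerase I and 8 serve polymerase III.

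Polymerase I transcribes the ribosomal DNA repeat into the large precursor of ribosomal RNA. Polymerase III makes transfer RNAs and the small ribosomal RNA that its partner does not make. Both enzymes share an assembly platform and several small subunits, and their output is known to fall when yeast runs out of nutrients and to recover when growth resumes. Polymerase I is brought to its promoter by Rrn3 together with the core factor and the upstream activating factor, and polymerase III by TFIIIC, which binds inside or beside the gene, and TFIIIB, which TFIIIC places upstream.

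Total RNA came from BY4742, a haploid laboratory strain used as wild type, and from a strain labelled stb3-null, which lacks STB3. The product of STB3 binds a DNA element found upstream of many ribosome biogenesis genes. Both strains were grown in YPD, a rich medium, for 3 days, and cells were taken at that point or 10 min into a treatment with 2% glucose. There are 4 groups with 2 arrays apiece, called replicate A and replicate B, and each array gives 1 log2 signal per probe set. The labels name no selection marker, no number of clones and no separate cultures, so the p-values reflect differences among these preparations alone, and those may be technical.

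STB3 was read first, as a check of the strain labels. Its log2 signal was 9.23 and 8.48 in wild type at 3 days and 8.42 and 7.62 after glucose, against 3.30, 2.90, 2.50 and 2.82 on the stb3-null arrays. The wild-type replicates lay further apart than those of stb3-null: over all genes the standard deviation of the difference between replicates A and B was 0.577 and 0.548 in wild type before and after glucose, and 0.261 and 0.278 in stb3-null. Over the 35 members the same figures were 0.409, 0.453, 0.275 and 0.248. A signal is a share of the labelled RNA of a culture, so that a lower signal from fewer cells with the transcript and one from less transcript per cell cannot be told apart.

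**Figure D1:**
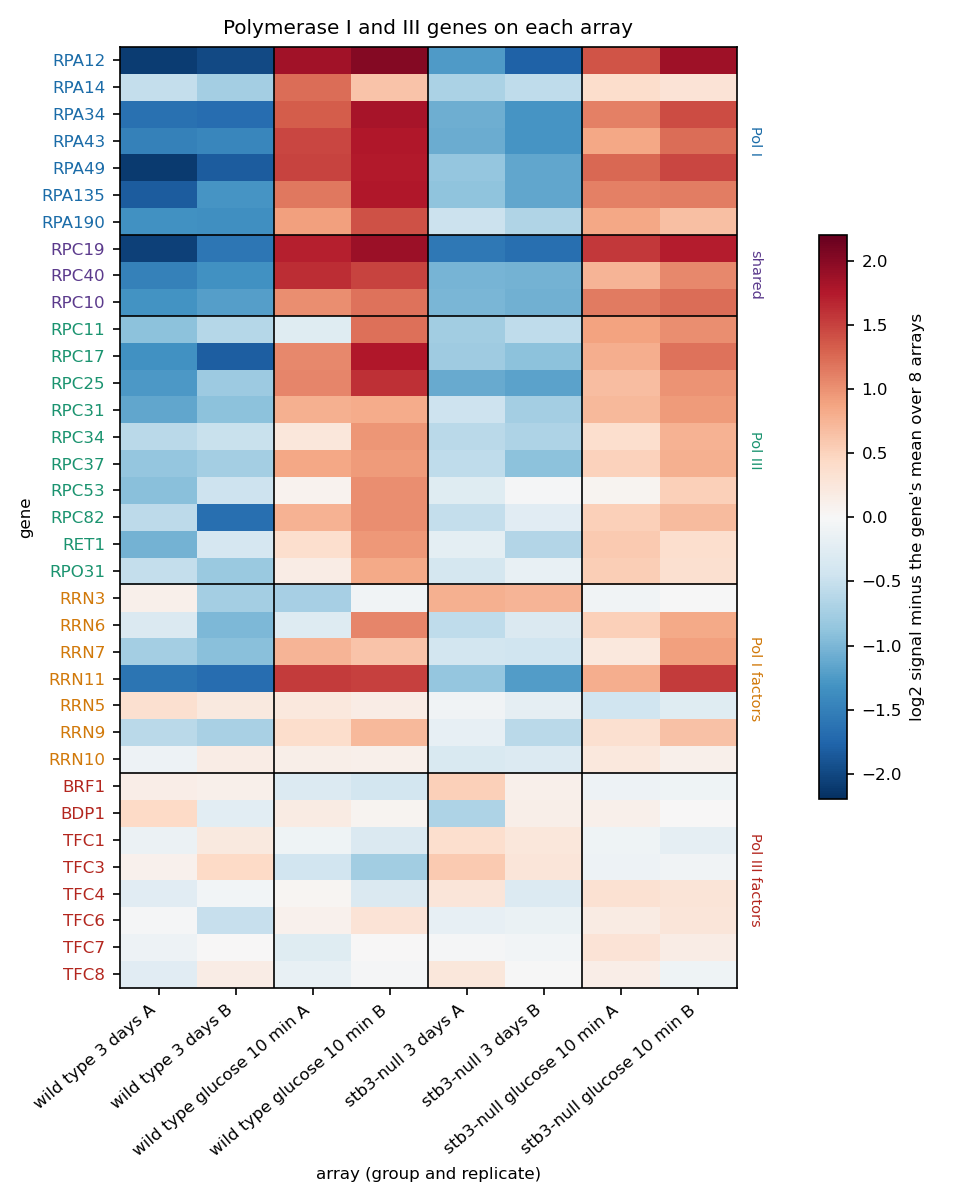
Log2 signal of each of the 35 genes on each of the 8 arrays, after subtraction of the gene's own mean over the arrays (colour, from below the mean in blue to above it in red). Genes are in rows by class and arrays in columns by group and replicate. Core subunits switch from blue to red with glucose in both strains, RPC11 on wild type glucose replicate A excepted, whereas most rows of the polymerase III factors stay pale.

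The first comparison asked how the machinery responded to 10 min of glucose in wild type. All 20 core subunit genes rose, by 1.16 to 3.98 on the log2 scale, with a median of 2.37. Initiation factors were mixed: 3 of 15 rose, 1 fell and 11 did not pass, with a median of 0.01. Tests were limma fits over all 5343 genes with Benjamini-Hochberg adjustment, and calls were made where the adjusted p was under 0.05. In that fit 49.9% of all genes were called, 32.3% higher and 17.6% lower, with a median change of 0.22. A rise of more than 2 was called for 12 core subunits and 1 factor, and for 7.49% of all genes.

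The groups of arrays separated every core subunit gene, since both glucose arrays lay above both 3-day arrays in 20 of 20 cases, as they did for 44% of all genes tested. On the same criterion 5 of 15 factor genes were higher and 2 were lower, beside 26.9% of all genes lower. The difference between the median of the core subunits and that of the factors was 2.36. For class medians of gene-centred signals, the standard deviation of this gap over arrays was 0.176. That figure combines the standard deviations of both groups, from 2 arrays each, and is no standard error of 2.36. The difference is given as a description, because the members were chosen with results of these data known. Relative to the median of all genes, the core subunits stood at 2.15 and the factors at -0.21.

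The core subunits of polymerase I had a median rise of 3.09. RPA12 (YJR063W), the subunit that stimulates RNA cleavage by the enzyme, had log2 signals of 6.41 and 6.52 at 3 days and of 10.36 and 10.52 after glucose. Its replicates lay within 0.16 of each other while the groups were far apart. The rise was 3.98 (SE 0.248, adjusted p = 1.3e-05, limma), or 15.7-fold. RPA49 (YNL248C), part of a heterodimer that helps the enzyme start and elongate, went from 7.16 and 7.43 to 10.75 and 11.01, a rise of 3.59 (SE 0.229, adjusted p = 1.3e-05). Its partner gene RPA34 (YJL148W) went from 6.95 and 6.92 to 9.94 and 10.42, a rise of 3.25. Neither gene had overlapping groups.

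The catalytic subunits and the stalk of polymerase I rose as well. RPA190 (YOR341W), for the largest subunit, went from 8.18 and 8.16 to 10.41 and 10.90, a rise of 2.49 (SE 0.238, adjusted p = 4.9e-05). RPA135 (YPR010C), for the second-largest subunit, rose by 3.03 (SE 0.285). In the stalk, which takes up Rrn3, RPA43 (YOR340C) rose by 3.09 (SE 0.208), whereas RPA14 (YDR156W) rose by 1.56 (SE 0.251, adjusted p = 8.33e-04), the smallest change among the 7. Its 95% confidence interval of 0.99 to 2.12 lay below the interval of 2.62 to 3.55 of RPA43, a difference between the partners that was not tested.

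RPA190 was covered by 7 probe sets, which differed in size of response. The brightest, used here, and the next 2 in brightness gave 2.49, 2.42 and 2.63 in wild type. The 4 dimmer ones gave 1.44, 2.35, 1.34 and 0.31, and the dimmest never exceeded 5.61, under the filter level of 5.80. In stb3-null the brightest 3 gave 1.32, 1.24 and 1.72, and the others 0.37, 0.99, 0.47 and 0.17. All 7 were smaller in stb3-null, although they are readings of the same RNA samples and no independent evidence.

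**Figure D2:**
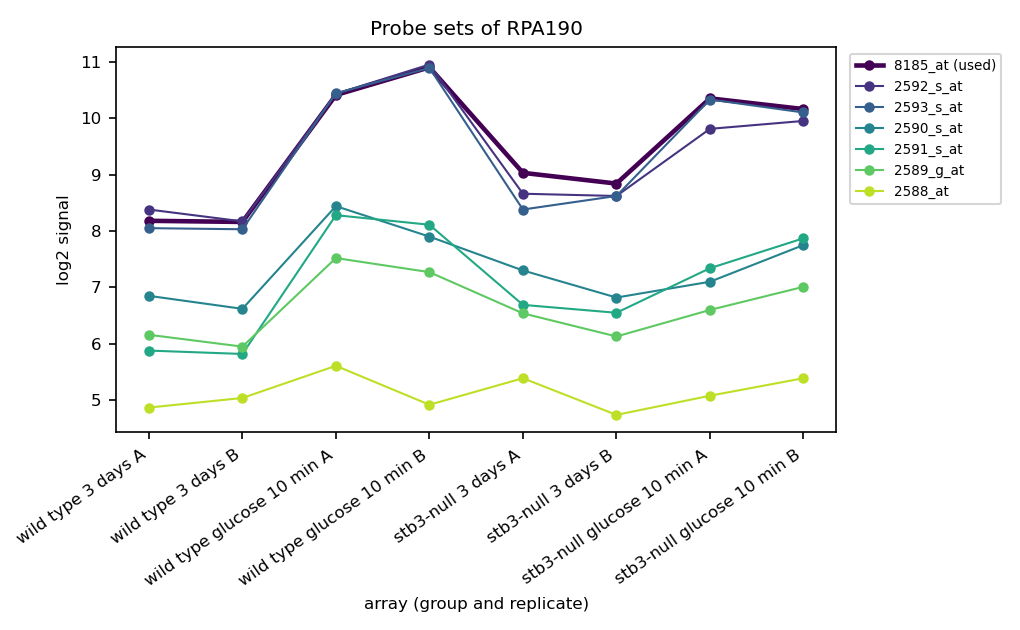
Log2 signal of the 7 probe sets of RPA190 (one line each, ordered in the legend from brightest to dimmest) on the 8 arrays, with the one used here drawn thicker. The 3 brightest lie close together in wild type and further apart in stb3-null, and their signals are higher after glucose in both strains, and the dimmest stays between 4.74 and 5.61.

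Among the members, the 3 genes for subunits of both polymerases I and III rose by 2.37 to 3.62. RPC19 (YNL113W), a partner in the assembly platform of both enzymes, went from 8.11 and 8.58 to 11.88 and 12.05, a rise of 3.62 (SE 0.245, adjusted p = 1.3e-05) or 12.3-fold. RPC40 (YPR110C), the other partner, went from 8.17 and 8.32 to 11.28 and 11.14, a rise of 2.97 (SE 0.221). RPC10 (YHR143W-A), a small subunit that polymerase II uses too, rose by 2.37 (SE 0.206). The groups of all 3 genes were well separated.

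Polymerase III subunit genes rose less in the median, by 1.53, with a range of 1.16 to 2.99. The stalk genes were at the top: RPC17 (YJL011C) went from 5.99 and 5.51 to 8.39 and 9.09, a rise of 2.99 (SE 0.275), and RPC25 (YKL144C) rose by 2.38 (SE 0.246). Within the subcomplex that contacts TFIIIB at initiation, RPC82 (YPR190C) rose by 2.01 (SE 0.316), RPC31 (YNL151C) by 1.83 (SE 0.216) and RPC34 (YNR003C) by 1.16 (SE 0.265). In the heterodimer that acts in termination, RPC37 (YKR025W) rose by 1.70 (SE 0.217) and RPC53 (YDL150W) by 1.23 (SE 0.316, adjusted p = 0.00978). Because 1 of the 3-day signals of RPC17 lay below 5.80, its fold is loosely fixed. Adding a pseudocount of 20% of the mean trimmed mean before taking logs gave 1.71. The same pseudocount took RPC34, whose 3-day signals of 5.88 and 5.97 lay just above that level, to 0.53.

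The largest polymerase III subunits were near the bottom of that range. RPO31 (YOR116C), for the largest one, went from 8.53 and 8.24 to 9.22 and 9.90, a rise of 1.18 (SE 0.263, adjusted p = 0.00497). RET1 (YOR207C), for the second-largest, rose by 1.36 (SE 0.316, adjusted p = 0.00589). RPC11 (YDR045C), needed for RNA cleavage and termination, lay at 8.31 and 8.58 at 3 days and at 8.95 and 10.42 after glucose, the widest gap between replicates among the core subunits. Its rise was 1.24 (SE 0.397, adjusted p = 0.0264), and it was 0.51 without wild type glucose 10 min replicate B, 1.98 without replicate A, and not called without that replicate B or without wild type 3 days replicate A. It also missed the threshold after quantile normalisation and with only the groups compared in the fit. RPC53 likewise lost its call when wild type glucose 10 min replicate B was left out, at 0.76, and when wild type 3 days replicate A was.

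**Figure D3:**
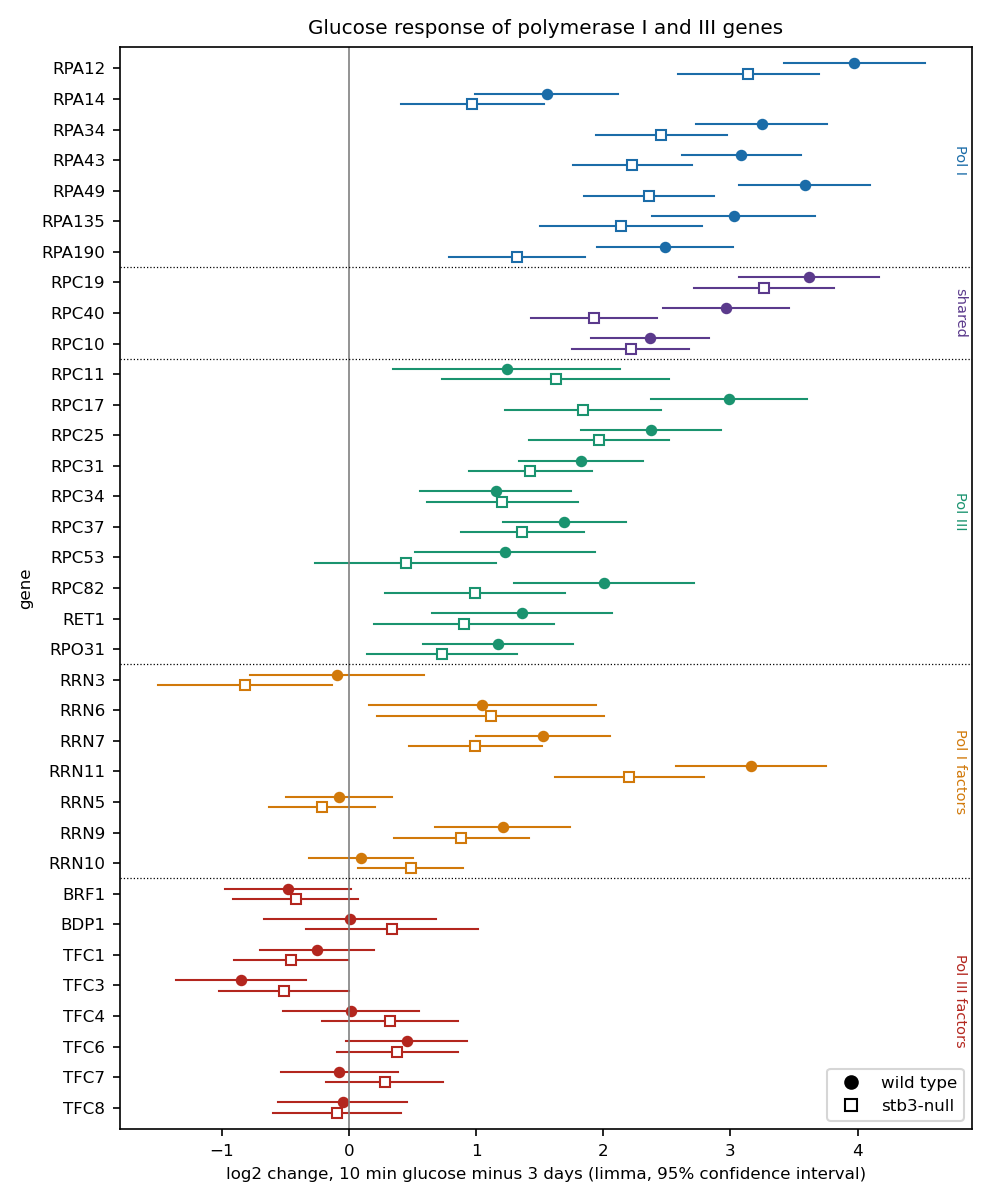
Log2 change from 3 days to 10 min of glucose for each gene (rows, coloured by class), with filled circles for wild type, open squares for stb3-null and bars for limma's 95% confidence interval. In wild type every core subunit lies at 1.16 or above, and the 8 polymerase III factors lie between -0.85 and 0.46.

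Subunits that hold the same position in different polymerases could be set side by side. Among the largest subunits the change in wild type was 2.49 for RPA190 of polymerase I, 1.18 for RPO31 of polymerase III and 0.21 for RPO21 of polymerase II, the last not passing (adjusted p = 0.573). Among the second-largest it was 3.03 for RPA135, 1.36 for RET1 and 1.71 for RPB2. For the cleavage subunits RPA12 and RPC11 it was 3.98 and 1.24, and for RPB9, in the matching position of polymerase II, it was 2.07. In the stalks, RPA43 and RPC25 rose by 3.09 and 2.38 while RPB7 of polymerase II was at 0.40 (adjusted p = 0.236), and RPA14 and RPC17 rose by 1.56 and 2.99 while RPB4 was at -0.27 (adjusted p = 0.359). In the assembly platform, RPC40 and RPC19 rose by 2.97 and 3.62, and their polymerase II counterparts RPB3 and RPB11 by 0.57 and 1.10. The polymerase II subunit thus had the smallest value in 5 of 7 positions, and in the other two RPB2 and RPB9 lay above RET1 and RPC11. None of these differences between genes was tested.

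**Figure D4:**
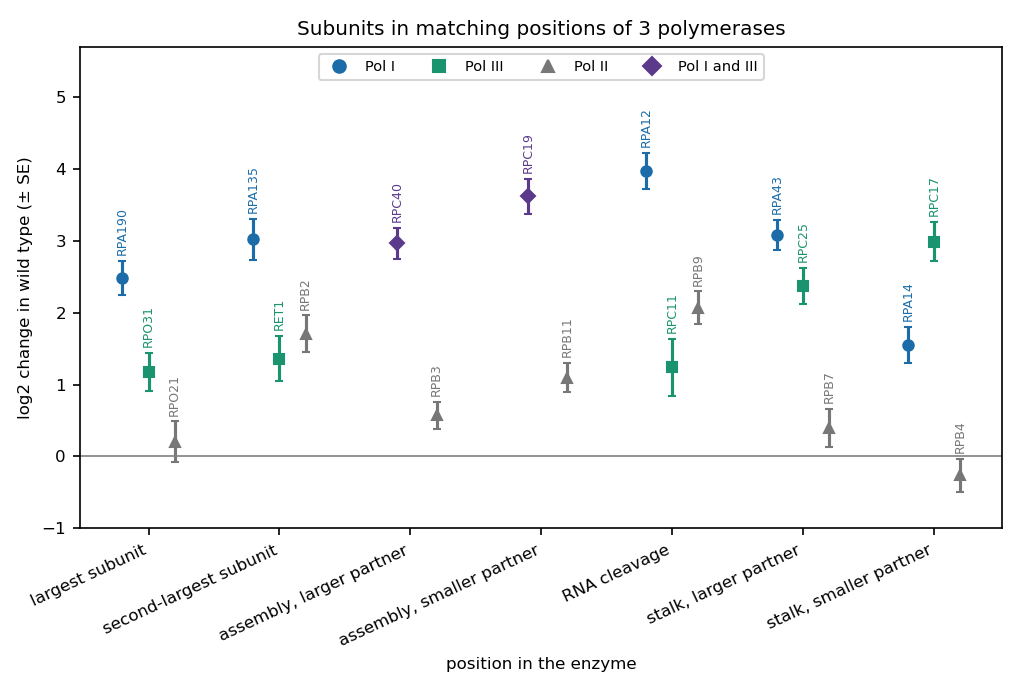
Log2 change with glucose in wild type (points, with the standard error as bars) for genes whose products take matching positions in polymerases I, III and II, with shared subunits of I and III as diamonds. In each position the polymerase I or shared subunit lies above the polymerase II one, as with RPA190 at 2.49 and RPO21 at 0.21.

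Subunits common to all 3 polymerases, apart from RPC10, went with the polymerase I and III genes. All 4 measured ones rose: RPB5 by 2.43, RPO26 by 2.58, RPB8 by 2.64 and RPB10 by 2.36. Of the 7 subunits found in polymerase II alone, 4 rose (RPB2, RPB3, RPB9 and RPB11) and 3 did not pass, with a median of 0.57. These counts stand beside the 32.3% of all genes called higher.

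Of the initiation factors of polymerase I, 3 of 7 rose, of which RRN11 and RRN7 belong to the core factor. RRN11 (YML043C) had log2 signals of 5.06 and 5.0 at 3 days and of 8.21 and 8.17 after glucose, a rise of 3.16 (SE 0.262, adjusted p = 2.64e-05). Its 3-day signals lay below the filter level, which it passed through its glucose arrays, which leaves the size of the rise poorly fixed, and adding the same pseudocount brought it to 1.49. RRN7 (YJL025W), a relative of the general factor TFIIB, rose by 1.53 (SE 0.235, adjusted p = 6.32e-04). RRN6 (YBL014C) lay at 7.44 and 6.76 before glucose and at 7.47 and 8.83 after it, a change of 1.05 that just missed the threshold (adjusted p = 0.0509), and passed without wild type 3 days replicate A or without wild type glucose 10 min replicate A.

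In the upstream activating factor, RRN9 (YMR270C) rose by 1.21 (SE 0.236, adjusted p = 0.00242), whereas RRN5 (YLR141W) and RRN10 (YBL025W) were at -0.08 and 0.10 without passing. RRN3 (YKL125W), which joins polymerase I to its promoter, had log2 signals of 8.57 and 7.71 before glucose and of 7.72 and 8.37 after it. The groups of RRN3 overlapped, and the change of -0.10 had a 95% confidence interval of -0.78 to 0.59 (adjusted p = 0.816). That interval lay below the intervals of all 7 polymerase I subunits, of which the lowest began at 0.99. The fit takes the same spread per gene in both strains, so the close stb3-null arrays narrow this interval. The standard deviations of RRN3 before and after glucose were 0.608 and 0.46 in wild type, and 0.021 and 0.057 in stb3-null. Without wild type 3 days replicate A the change of RRN3 was 0.335.

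None of the 8 polymerase III factor genes was called higher in the main fit. TFC3 (YAL001C), for the TFIIIC subunit that binds the internal promoter, had log2 signals of 8.82 and 9.16 at 3 days and of 8.31 and 7.97 after glucose. It fell by 0.85 (SE 0.227, adjusted p = 0.0117) and lost its call when replicate B of either wild-type group was left out or only the groups compared were fitted. A dimmer probe set of TFC3 went from 5.84 and 6.70 to 5.05 and 4.25, a change of -1.62 whose glucose signals lay below the filter level. In stb3-null the same probe set changed by -0.985. The other 5 TFIIIC genes (TFC1, TFC4, TFC6, TFC7 and TFC8) lay between -0.25 for TFC1 and 0.46 for TFC6 without passing. Without wild type 3 days replicate A, TFC6 was at 0.695. Of the TFIIIB genes, BRF1 (YGR246C) lay at 9.53 and 9.50 before and at 9.09 and 8.98 after glucose, a change of -0.48 that did not pass (adjusted p = 0.0958) although its groups did not overlap, and BDP1 was at 0.01.

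The size of these changes depended on how the arrays were scaled. Scaling to a common trimmed mean took the median of all genes from 0.22 to -0.26 in wild type and median centring took it to 0.13. With the common trimmed mean 16 core subunits rose and none fell, RPC11, RPC34, RPC53 and RPO31 no longer passing, while 5 factors were called lower (RRN5, BRF1, TFC1, TFC3 and TFC7) and 3 higher. The split of higher to lower members was thus 19 to 5 rather than 23 to 1. Quantile normalisation gave 22 to 2, with BRF1 as the added fall. No core subunit lay below the median of all genes under any of these scalings.

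Other factors of both systems were read from a list fixed for context. PZF1, for the factor that polymerase III needs at the ribosomal RNA gene it transcribes, rose by 1.73, from signals of 5.27 and 5.31 that lay below the filter level, so that its size is loosely fixed. NET1, for a nucleolar protein that stimulates polymerase I, rose by 1.67. TOP1, for topoisomerase I, rose by 1.19, SPT15, for the TATA-binding protein that all 3 systems use, by 0.82, and UAF30, of the upstream activating factor, by 0.80. MAF1, for the repressor of polymerase III, was at -0.08 (adjusted p = 0.84), and HMO1, NHP6A, NHP6B and SUB1 did not pass either. In all, 5 of 10 passed as higher and 0 as lower, and the median change of the list was 0.73, beside 32.3% and 17.6% of all genes and their median of 0.22.

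The same question was asked of stb3-null. Of the 20 core subunits, 18 rose and 2 did not pass, with a median of 1.73, and of the 15 factors 4 rose, none fell and 11 did not pass, with a median of 0.33. In the same fit 39.5% of all genes were called, 28% higher and 11.6% lower, with a median of 0.26. A rise of more than 2 was called for 7 core subunits and 1 factor, and for 3.33% of all genes. The median of the core subunits exceeded that of the factors by 1.41. The combined standard deviation over arrays, taken as in wild type, was 0.217. Glucose arrays lay above 3-day arrays without overlap for 20 core subunits and 8 factors, and below them for 5 factors, beside 52.1% and 28.5% of all genes.

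In both strains 18 core subunits and 3 factors were called higher, as were 23.9% of all genes. RPC19 went from 8.59 and 8.51 to 11.73 and 11.90, a rise of 3.27 (SE 0.245, adjusted p = 1.01e-04, limma) or 9.61-fold. RPA12 went from 7.26 and 6.72 to 9.89 and 10.37, a rise of 3.14, and RPA34 from 7.52 and 7.31 to 9.71 and 10.03, a rise of 2.46. Over the 35 members the changes in the strains, which rest on different arrays, had a Pearson correlation of 0.949, given as a description across genes that are not independent replicates.

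Several smaller rises of stb3-null were close to the threshold. RPA14 rose by 0.97 (adjusted p = 0.0138), RPC82 by 0.995 (adjusted p = 0.0322), RET1 by 0.91 (adjusted p = 0.0456) and RRN6 by 1.12 (adjusted p = 0.0493), and none of these 4 passed when any 1 of the stb3-null arrays was left out, or with a common trimmed mean. RPC82, RET1 and RRN6 did not pass after quantile normalisation either, nor RET1 and RRN6 after median centring, nor RRN6 without the filter, without the trend or with robust empirical Bayes. RPC11 and RRN7 did not pass without stb3-null 3 days replicate A or B or glucose 10 min replicate B (RRN7 at 0.66 without the last), nor did RPC34 and RRN9 without 3 days replicate B or glucose 10 min replicate B. The count of members called, 22, came to 16 and 14 without stb3-null 3 days replicate A and B and to 18 and 14 without glucose 10 min replicate A and B, where between 17.1% and 21% of all genes were called. RPO31 was at 0.73 (adjusted p = 0.0514) and passed when any 1 wild-type array was left out. RPC53 lay at 7.54 and 7.78 before and at 7.88 and 8.33 after glucose, a change of 0.45 that did not pass (adjusted p = 0.286).

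No factor of polymerase III passed in stb3-null in the main fit, with changes between -0.51 for TFC3 and 0.38 for TFC6. Of the other settings, 5 called TFC3 lower, 3 each BRF1 and TFC1, and 1 TFC8, while 2 called TFC6 higher. RRN3 had log2 signals of 9.24 and 9.21 before glucose and of 8.37 and 8.45 after it. The RRN3 groups did not overlap here, and the change of -0.82 narrowly missed the threshold (95% confidence interval -1.50 to -0.13, adjusted p = 0.0583), which it passed in 11 of 20 other settings. These included the omission of any 1 wild-type array. RRN11 rose by 2.21, RRN7 by 0.995 and RRN9 by 0.89, and RRN10 was at 0.49 (adjusted p = 0.0599), passing without wild type 3 days replicate A or B.

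The split between higher and lower members in stb3-null depended on the scaling more than in wild type. It was 22 to 0 as reported, 20 to 1 with median centring, 19 to 3 with quantile normalisation and 14 to 6 with arrays brought to the same trimmed mean, where all genes had a median of -0.24. The lower members were factors in each case, and 13 to 17 core subunits were called higher under these scalings.

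Whether the strains differed was asked before glucose, after glucose and for the response itself. No member passed in any of these comparisons by limma. Of the core subunits and the factors, 4 and 3 had an unadjusted p below 0.05 at 3 days, 3 and 1 after glucose, and 8 and 1 for the difference between responses, beside 8.72%, 9.66% and 6.92% of all genes. Calls were rare over all genes as well, at 0.0374%, 0.0187% and 0% of those tested. When wild type 3 days replicate A was left out, 3.14% of all genes were called at 3 days, RRN3 at 1.52 and RPC82 at 1.27 among them.

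At 3 days most core subunit signals were higher in stb3-null, without passing. The median difference was 0.39 for the core subunits, 0.53 for those of polymerase I, 0.17 for the factors and 0.03 for all genes. Both stb3-null arrays lay above both wild-type arrays for 13 of 20 core subunits and 4 of 15 factors, as for 20.3% of all genes, and below them for 1 core subunit and 2 factors, as for 16.9% of all genes. RPA49 had the smallest p of the 35, with 7.16 and 7.43 in wild type and 8.42 and 8.12 in stb3-null, a difference of 0.98 (SE 0.229, unadjusted p = 0.00185, adjusted p = 0.309). RRN3 differed by 1.09 (adjusted p = 0.427), with 8.57 and 7.71 in wild type and 9.24 and 9.21 in stb3-null.

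After glucose the median difference of the core subunits had the opposite sign. It was -0.27 for the core subunits, -0.34 for those of polymerase I, 0.06 for the factors and 0.04 for all genes. A single array moved the core median: leaving out wild type glucose 10 min replicate B gave -0.07, leaving out its partner replicate A gave -0.41, and leaving out stb3-null glucose 10 min replicate A gave -0.15. Both stb3-null arrays lay below both wild-type arrays for 9 of 20 core subunits and above them for none. Of the 15 factors, 4 lay above, all of polymerase III (BRF1, TFC3, TFC4 and TFC7), and 1 (RRN5) lay below. Over all genes 20.3% lay below and 23.8% lay above. RPC40 had 11.28 and 11.14 in wild type and 10.40 and 10.71 in stb3-null, a difference of -0.66 (SE 0.221, adjusted p = 0.409). RRN5 had 7.04 and 6.97 against 6.37 and 6.53, a difference of -0.56 (adjusted p = 0.409). These values come from the brightest of 3 probe sets of RRN5. On the next in brightness the strains overlapped, at 6.34 and 6.53 in wild type and 6.19 and 6.46 in stb3-null. The dimmest lay lower in stb3-null, at 5.68 and 5.41 against 5.19 and 5.31, all below the filter level. The position of RRN5 below wild type thus depended on the probe set.

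**Figure D5:**
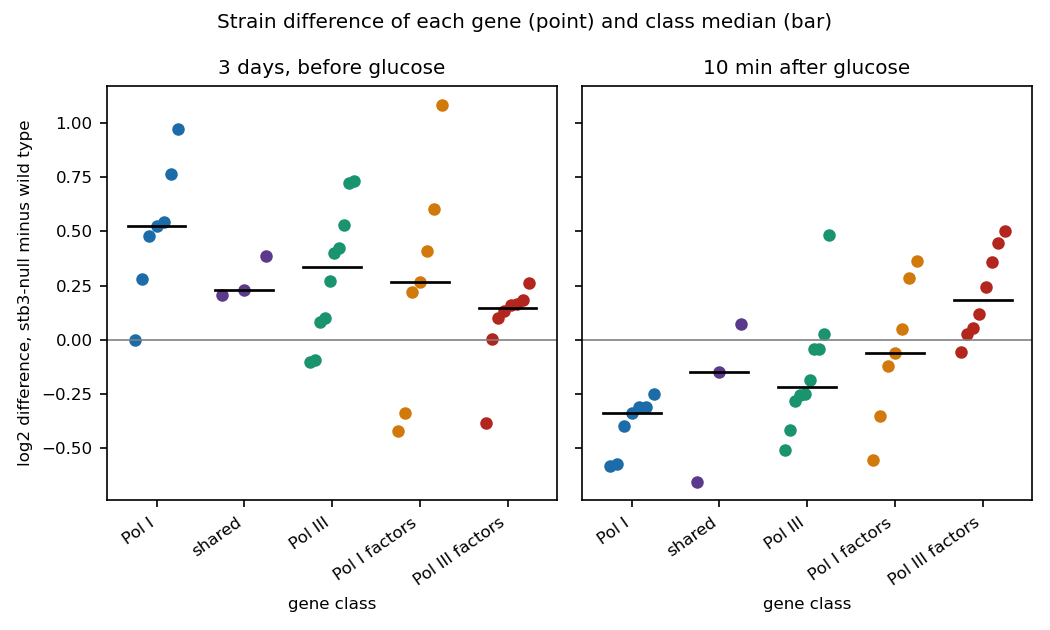
Log2 difference between stb3-null and wild type for each gene (points) and the median of each class (bars), at 3 days on the left and 10 min after glucose on the right. The median of the polymerase I subunits is 0.53 on the left and -0.34 on the right, and no gene shown passed the test.

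The log2 change with glucose was lower in stb3-null for 18 of 20 core subunits, the exceptions being RPC11 and RPC34, and for 8 of 15 factors. Such an order was common, since 80.1% of the genes called higher in wild type, and 48.1% of all genes, had a smaller change in stb3-null. The genes called higher were selected on the wild-type change, which is subtracted in the difference, so that their share is no neutral reference. RPA49 had the smallest p, with a rise of 3.59 in wild type and 2.36 in stb3-null, a difference of -1.23 (95% confidence interval -1.95 to -0.50, unadjusted p = 0.00389, adjusted p = 0.644). For RPA190 it was -1.17 (interval -1.92 to -0.41), and for RPC40 -1.04 (interval -1.74 to -0.34). The median was -0.69 for the core subunits, -0.05 for the factors and 0.02 for all genes. For RPA43, RPA49, RPA135, RPA190, RPC40 and RPC82 both stb3-null arrays lay above wild type before glucose and below it afterwards, a pattern found in 3.56% of all genes. Only RPA43 and RPC40 had wider margins at both times. After glucose the nearest arrays of stb3-null and wild type were 10.73 and 10.75 for RPA49, 11.13 and 11.16 for RPA135, and 10.35 and 10.41 for RPA190. At 3 days they were 7.38 and 7.33 for RPC82.

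Positions on the chromosomes were read from the order of genes in RefSeq's yeast table (assembly R64). RPA43 and RPA190 are neighbours transcribed away from each other, and they rose by 3.09 and 2.49 in wild type. A divergent upstream neighbour with a measured signal was found for 14 core subunits, RPA43 and RPA190 counted for each other, and 8 of those neighbours rose in wild type and 1 fell, beside 32.3% and 17.6% of all genes. Among them, DBP7 next to RPC37, for a helicase of large-subunit assembly, rose by 2.62, and LTV1 next to RPC25, for a factor of small-subunit export, by 2.08. In contrast NTA1 next to RPA12 was at 0.06 (adjusted p = 0.885) and YNL115C next to RPC19 fell by 1.54. Of 6 such neighbours of factor genes 2 rose and 2 fell, including CAT2 next to RRN11, for carnitine acetyltransferase, which fell by 1.60.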

How the data were processed

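Total RNA of 8 preparations was hybridised to 1 array each. The deposited table holds the authors' log2 signal for 9275 probe sets, with the log base read from its values of 0 to 14.55. The submitters' processing notes name MAS5, and the scaling of the arrays is unknown here. Groups came from the sample titles.

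The platform annotation named 6504 probe sets with 1 gene. Genes had to reach a mean antilog signal of 10% of the mean 2% trimmed mean. limma 3.58.1 in R 4.3.3 fitted 4 group means with a mean-variance trend (4 residual and 5.56 prior degrees of freedom) and the same spread per gene in all groups. Tests were two-sided, with Benjamini-Hochberg adjustment over 5343 genes. The fit was also run on simulated data with equal spread in all groups, which cannot show how the wider spread of the wild-type replicates affects the calls. Precision is limited by the number of arrays.

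The members, classes and context lists were chosen with earlier results of these data known. All members are named. Array values were planned for the 3 largest rises, every fall, RRN3, RPA190, RPO31 and the smallest p between strains; those of RPA34, RPC11, RPC17, RPC40, RPC53, RRN6, RRN11 and BRF1 were added after their values were seen. Differences A minus B correlated between groups at -0.183 to 0.224, so the letters were not taken to pair arrays. Alternatives were 12 other ways of processing and 8 omissions of an array. Promoter motifs were not analysed here.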

Additional observations from a re-analysis of the deposited data

How the results depend on the processing

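Over 12 other ways of processing, 22 to 25 members were called in the wild-type response and 20 to 29 in the stb3-null response, and none in the comparisons between strains, or in the 11 ways that could be run for the difference between responses. With 1 array left out the ranges were 21 to 25, 14 to 25, 0 to 2 at 3 days, and 0 after glucose and for the difference between responses. The gap between core subunit and factor medians stayed positive throughout. In wild type it was 1.65 with a pseudocount of 20%, 2.18 with the mean of all probe sets and between 2.11 and 2.48 with an array left out. In stb3-null it was 0.98 with the pseudocount and 1.25 to 1.58 with an array left out. The pseudocount compresses changes of low signals by its construction, and the cause of the other shifts was not tested. With the replicate letter as a block, 25 members were called in wild type, RRN6 added, and 22 in stb3-null, and the replicate block changed no other count of members. Over all genes, 2668 were called in wild type and 2113 in stb3-null, against 2037 and 3255 with array weights and 1852 and 3284 with only the groups compared, so that the counts do not rank the strains. With 1 array left out, the stb3-null count of all genes went down to 915. No called member changed sign under any of these alternatives. With the filter at 40% of the mean trimmed mean 28 members were tested. Signals near 5.80, as for RRN11 and RPC17 at 3 days, limit the precision of their folds.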
